A study of Mus musculus with 5 samples.

Results

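Polycomb and Trithorax genes encode the enzymes that write and erase the histone marks of repressed and active promoters. The group described here holds 41 such genes, chosen by name and sorted by complex into 11 genes of Polycomb repressive complex 2 (PRC2), 16 of Polycomb repressive complex 1 (PRC1), 11 of the histone H3 lysine 4 (H3K4) methyltransferase complexes and 3 histone demethylases. Of these 41 genes, 40 could be measured, among 18193 genes measured in all. The remaining gene, Rybp, was listed only on probe sets that also list its pseudogene Rybp-ps and was given no value. All 40 exceeded the filter on low values, the 40th percentile of each array on at least 1 array, as did 13619 genes in all. Ring1 did so on only 3 of the 5 arrays.

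The RNA came from mouse embryonic stem cells depleted of Tet1, the dioxygenase that oxidizes 5-methylcytosine, and was hybridised to 5 Affymetrix arrays, 1 for each group. J1 cells, an established stem cell line grown here with mouse embryonic fibroblast (MEF) feeders, had received control siRNA or Tet1 siRNA 4 days before harvest. E14 cells, another such line grown without feeders, had been infected with lentivirus carrying a scrambled hairpin, Tet1 shRNA3387 or Tet1 shRNA2863 and were harvested after 4 days in puromycin. Line, feeders and way of depletion therefore differ together, and J1 against E14 is called a difference of systems below. Values are log2 summaries of probe sets, a difference of 1 is 2-fold, and the probe set with the highest mean stands for its gene. Because probe sets differ in brightness, levels are compared between arrays and not between genes.

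In stem cells PRC2 trimethylates histone H3 at lysine 27, and PRC1 ubiquitinates histone H2A at many of the same CpG-rich promoters. The H3K4 methyltransferases, the mammalian relatives of fly Trithorax, mark such promoters for activity, and developmental genes often carry both kinds of mark. Tet1 is itself known to bind CpG-rich promoters, including many Polycomb targets.

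The promoters of the group were rich in CpG, the dinucleotide whose cytosine Tet1 acts on. RefSeq promoters (GRCm38.p6) were matched by symbol for 32 of the 41 genes, and the 250 bases before the start with most CpG were counted on 1 strand, since CG reads the same on both. The median was 23 CpG, with a range from 5 at Pcgf2 to 48 at Kmt2c. Other genes above the filter had a median of 16 (10934 genes). By a rule of more than 50% G and C and an observed over expected CpG ratio above 0.6, 27 of the 32 promoters (84.4%) were CpG-rich, against 61.6% of the other genes above the filter. At least 1 CpG was held by 100% of the 32 and by 98.4% of the other genes above the filter. Over all 32851 listed starts, of any gene, the share was 92.1%. The promoters of the genes on which the results turn are printed with CpG in capitals. They are both listed starts of Mtf2, whose smallest difference was the largest among the genes below control in all 3 depletions, and those of Suz12 and Rnf2, which were lower in E14 than in J1 cells. The Mtf2 starts are at chr5:108065424-108065673 and chr5:108077915-108078164 (both + strand), Suz12 is at chr11:79992856-79993105 (+ strand) and Rnf2 at chr1:151500992-151501241 (- strand), 5′ to 3′ along the gene.
Mtf2 first start: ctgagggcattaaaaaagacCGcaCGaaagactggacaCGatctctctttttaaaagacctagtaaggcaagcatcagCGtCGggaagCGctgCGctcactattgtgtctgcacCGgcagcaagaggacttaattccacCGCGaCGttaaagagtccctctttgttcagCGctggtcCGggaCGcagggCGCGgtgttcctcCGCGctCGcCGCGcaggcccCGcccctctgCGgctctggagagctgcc
Mtf2 second start: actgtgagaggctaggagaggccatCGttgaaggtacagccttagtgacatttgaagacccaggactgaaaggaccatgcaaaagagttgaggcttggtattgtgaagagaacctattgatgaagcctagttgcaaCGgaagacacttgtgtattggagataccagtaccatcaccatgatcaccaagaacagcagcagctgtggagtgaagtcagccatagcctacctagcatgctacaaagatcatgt
Suz12: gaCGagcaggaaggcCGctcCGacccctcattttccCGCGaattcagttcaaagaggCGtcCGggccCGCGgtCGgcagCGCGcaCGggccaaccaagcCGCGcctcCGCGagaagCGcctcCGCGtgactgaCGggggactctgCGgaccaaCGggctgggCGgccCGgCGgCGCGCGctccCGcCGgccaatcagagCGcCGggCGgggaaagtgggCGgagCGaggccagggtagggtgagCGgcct
Rnf2: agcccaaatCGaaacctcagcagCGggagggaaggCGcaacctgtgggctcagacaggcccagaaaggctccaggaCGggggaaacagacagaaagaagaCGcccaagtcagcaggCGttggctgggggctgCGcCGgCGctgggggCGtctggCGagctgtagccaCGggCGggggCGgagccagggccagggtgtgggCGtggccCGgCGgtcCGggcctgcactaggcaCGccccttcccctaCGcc
These stretches hold 23, 2, 37 and 20 CpG in the order printed. The downstream Mtf2 start thus lacks the CpG density of the first. No methylation was measured on these arrays.

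**Figure D1:**
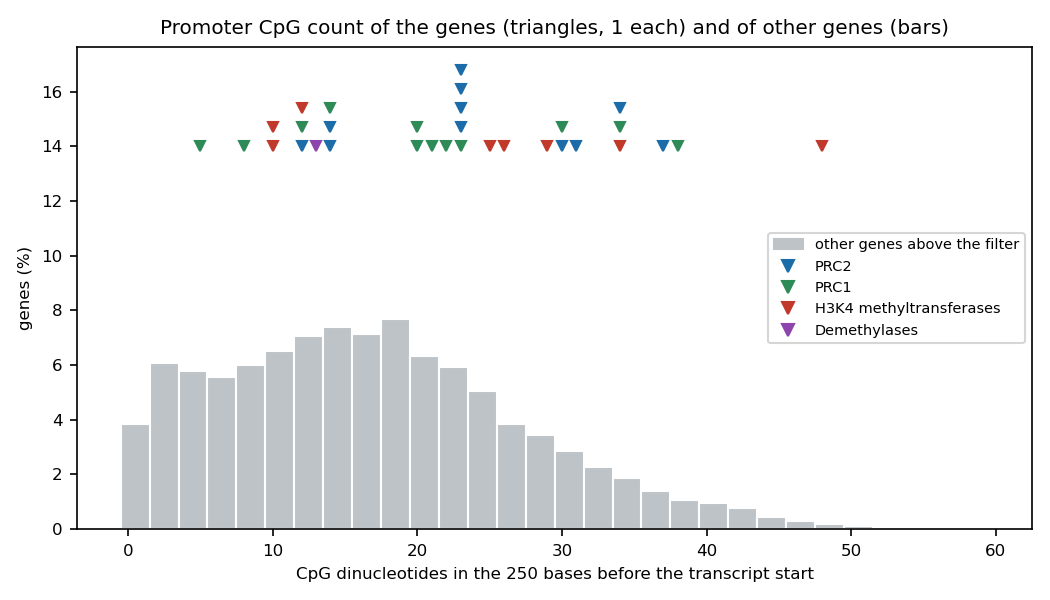
CpG dinucleotides in the 250 bases before the transcript start, for other genes above the filter (grey bars, percent of 10934 genes) and for 32 genes of the group (1 triangle each, coloured by complex and stacked only for visibility). The triangles run from 5 to 48 with a median of 23, to the right of the median of 16 of the other genes.

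Tet1 was lower on each depleted array, at 17.2% of its control in J1, 30.6% with shRNA3387 and 54.0% with shRNA2863. The stem cell transcription factors Pou5f1, Sox2 and Nanog, which mark the cell type named in the labels, read between 9.71 and 12.16 on all 5 arrays. The median of all probe sets lay between 3.45 and 3.52, and the filter level between 3.03 and 3.12. With 1 array a group, a difference between arrays has no replicate check. Tests used limma across all 13619 genes, and a p-value here reflects the scatter of these few arrays, in which reagent and technical variation are mixed.

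Polycomb and Trithorax transcripts stayed within 1.5-fold of their control (0.585 on the log2 scale) about as often as other transcripts. Of the 40 measured genes, 32 (80%) differed by less than that in every depletion, beside 81.1% of all genes. By the brightest probe set, none of the 40 (0) reached 2-fold in any, where 1.57%, 1.81% and 1.2% of all genes did in J1, shRNA3387 and shRNA2863. Dimmer probe sets of some of the 40 did, as given below. In J1 cells 0 were at least 1.5-fold higher and 4 lower (Jarid2, Phc1, Kmt2c and Wdr5), or 10% of the group, beside a background of 2.91% higher and 6.09% lower among all genes. With shRNA3387, 3 were higher (Phc3, Kmt2c and Kmt2d) and 1 lower (Mtf2), beside 5.39% and 3.36%. With shRNA2863, 1 was higher (Kdm5a) and 0 lower, beside 3.63% and 3.26%. These shares are near the background. Just outside the threshold were Pcgf1 at -0.58 in J1 and Suz12 at 0.58 with shRNA2863, and just inside was Kmt2c at 0.59 with shRNA3387. The limma test of a Tet1 effect over both systems, with 3 depleted and 2 control arrays and 2 residual degrees of freedom, called 0 of 13619 genes at an adjusted p under 0.05 (0%). Before adjustment 936 genes (6.87%) had p under 0.05, with 2.86% of all genes higher and 4.01% lower. From the group these were Mtf2, lower, and Yaf2, Kdm2b and Rbbp7, higher.

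**Figure D2:**
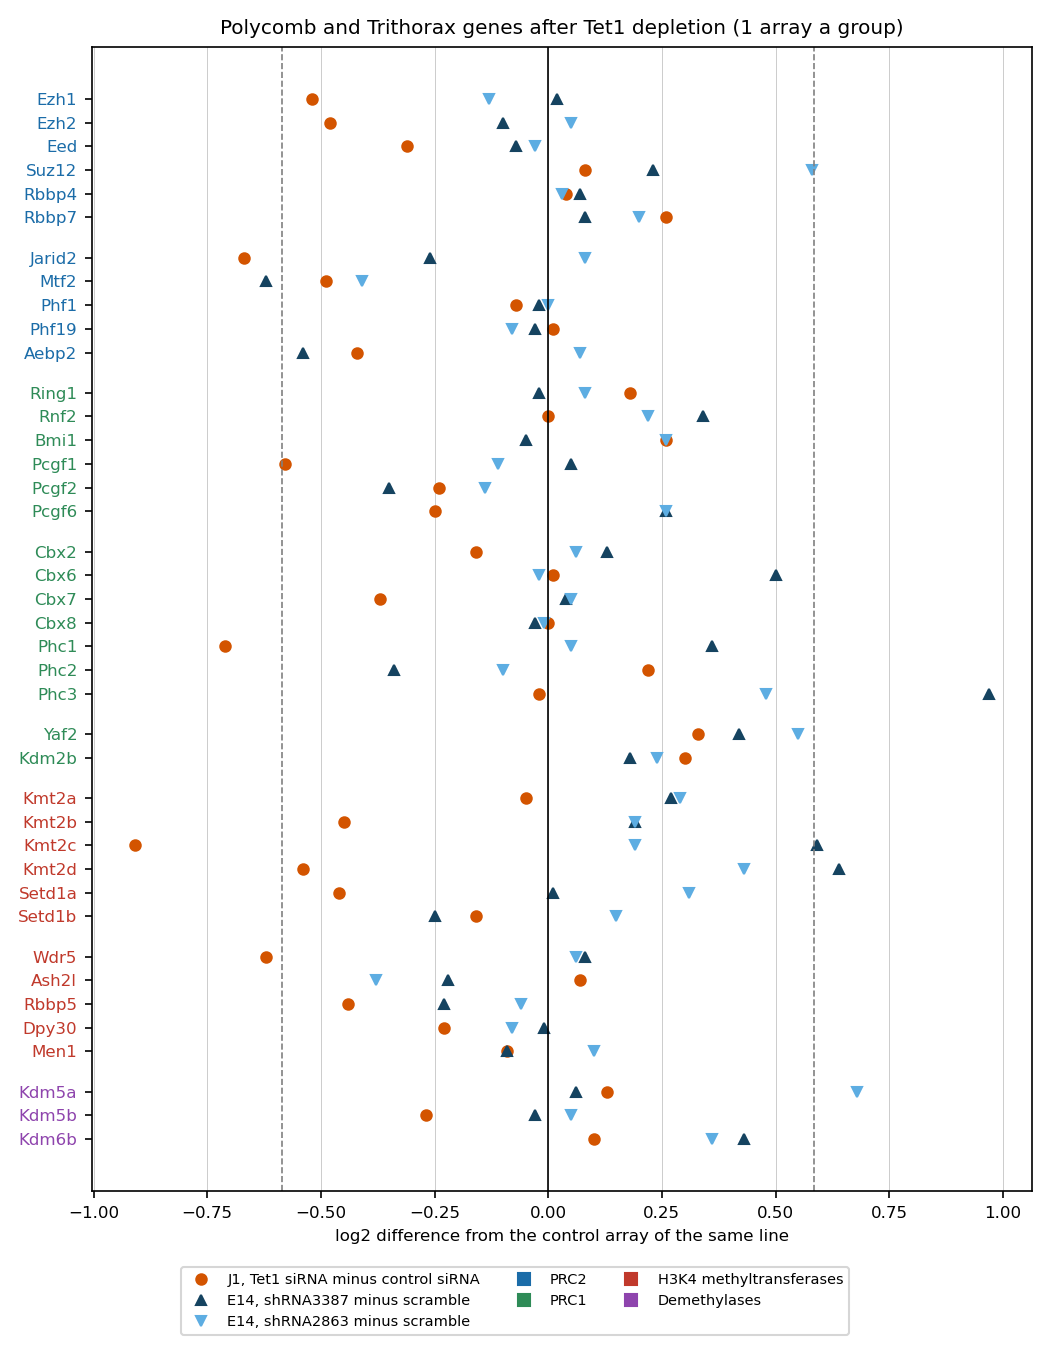
Log2 difference of each depleted array from the control array of its line, for the 40 measured genes by complex (name colours); circles are J1 with Tet1 siRNA, triangles E14 with either hairpin, and dashed lines 1.5-fold. Most symbols lie between the dashed lines, and the J1 circles of the H3K4 enzymes all lie left of 0.

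Both catalytic subunits of PRC2 were lower with Tet1 siRNA in J1 cells, by -0.48 for Ezh2 and -0.52 for Ezh1, short of 1.5-fold, and lay within 0.13 of the scramble array with the hairpins. Ezh2, the main H3K27 methyltransferase of dividing cells, read 9.82 on the J1 control array, 9.34 with Tet1 siRNA, 9.84 on the scramble array, 9.74 for shRNA3387 and 9.89 for shRNA2863. Its J1 siRNA array was the lowest of the 5, and the E14 arrays lay within 0.15 of each other. Its paralog Ezh1, a weaker methyltransferase, read 6.12 and 5.6 in J1 and 5.85, 5.87 and 5.72 in E14, in the same order of arrays. It too was lowest with Tet1 siRNA, but its other probe set above the filter differed there by 0.32.

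Eed, which binds trimethylated H3K27 and activates the enzyme, read 11.40 and 11.09 in J1 and 11.08, 11.01 and 11.05 in E14. It was lower than control in each depletion, by 0.03 to 0.31 in size. Suz12, the scaffold of the complex, read 10.13 and 10.21 in J1 and 8.88, 9.11 and 9.46 in E14. It was higher than control in each depletion (0.08, 0.23 and 0.58). With shRNA3387 the other bright probe sets of Suz12 differed by -0.22 and 0.17, so this direction depended on the probe set. The histone-binding subunit Rbbp7 read 12.26 and 12.52 in J1 and 12.08, 12.16 and 12.28 in E14, a pooled difference of 0.19 ± 0.06 (SE; limma unadjusted p = 0.0397, adjusted p = 0.718). Its other probe set differed by 0.24, -0.08 and 0.23. Its paralog Rbbp4 differed by 0.04, 0.07 and 0.03. All 3 other probe sets of Rbbp4 above the filter were higher in each depletion, by up to 1.16. Both paralogs were represented by probe sets of a type (x_at) that can bind related transcripts.

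Among the accessory subunits that guide PRC2 to chromatin, Mtf2 was below control in all 3 depletions. By the brightest probe set of each gene, Jarid2 had the largest decrease in J1 (-0.67), while dimmer Mtf2 probe sets decreased more there (-0.98 and -0.97). Mtf2 (also called PCL2), a Polycomb-like protein that recruits PRC2 to unmethylated CpG, read 11.46 and 10.97 in J1 and 9.87, 9.25 and 9.46 in E14. Each depleted array was below its own control, by -0.49, -0.62 and -0.41. The pooled difference was -0.50 ± 0.09 (SE; limma unadjusted p = 0.00678, adjusted p = 0.7), or 1.40-fold in J1 and 1.54-fold and 1.33-fold lower with the hairpins. Its next 3 probe sets were also lower in each depletion, at -0.22, -0.59 and -0.59, at -0.98, -0.45 and -0.49, and at -0.97, -0.29 and -0.17. The dimmest Mtf2 probe set above the filter, between 3.41 and 4.54, differed by -0.26, 0.68 and 0.64. Of these 5 probe sets, 4 were therefore below control on all 3 depleted arrays. The differences with the hairpins share the scramble array.

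Jarid2, a cofactor needed for PRC2 targeting in stem cells, read 11.58 and 10.91 in J1 and 10.91, 10.65 and 10.99 in E14. It was 1.59-fold lower with Tet1 siRNA, and both its other probe sets were lower there by -0.68 and -0.73. With the hairpins it differed by -0.26 and 0.08. Aebp2, a zinc finger accessory subunit of PRC2, differed by -0.42, -0.54 and 0.07, and the hairpin arrays differed from each other by 1.53-fold. Another Aebp2 probe set differed by 1.02 and 1.05 with the hairpins, opposite to the brightest with shRNA3387. The remaining Polycomb-like proteins Phf1 and Phf19 lay within 0.08 of their controls in each depletion. Over the 11 PRC2 genes the median differences were -0.31, -0.03 and 0.03 in J1, shRNA3387 and shRNA2863, beside -0.01, -0.02 and -0.01 over all genes above the filter.

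**Figure D3:**
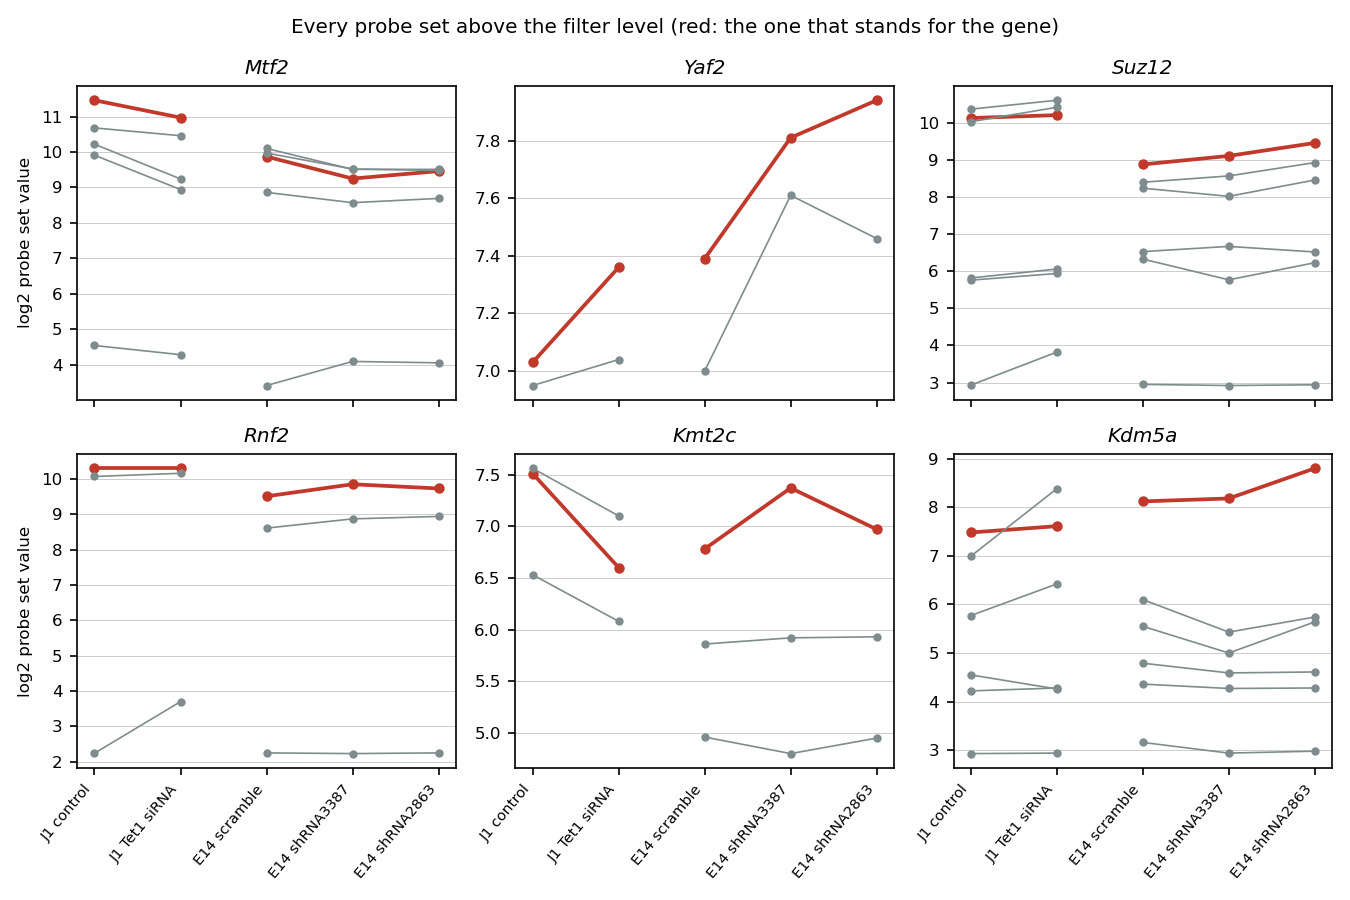
Log2 values on the 5 arrays of every probe set above the filter for Mtf2, Yaf2, Suz12, Rnf2, Kmt2c and Kdm5a; the red line stands for the gene, and lines are broken between the J1 and E14 arrays. The 4 brightest Mtf2 lines and both Yaf2 lines run in one direction from control to each depletion, while those of Kdm5a do not.

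In PRC1, the variant-complex subunits Yaf2 and Kdm2b were higher in each depletion. Yaf2, a relative of Rybp that binds RING proteins in variant PRC1, read 7.03 and 7.36 in J1 and 7.39, 7.81 and 7.94 in E14. Every depleted array exceeded its control (0.33, 0.42 and 0.55), and the pooled value was 0.42 ± 0.11 (SE; limma unadjusted p = 0.0202, adjusted p = 0.7). The other Yaf2 probe set was also higher in each, by 0.09, 0.61 and 0.46. Kdm2b, which brings variant PRC1 to CpG islands through its CXXC zinc finger, read 9.34 and 9.64 in J1 and 9.55, 9.73 and 9.79 in E14. Its pooled difference was 0.249 ± 0.075 (SE; limma adjusted p = 0.716), but its second probe set differed by -0.19, -0.19 and 0.21.

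The E3 ligase Rnf2 (RING1B) read 10.30 and 10.30 in J1 and 9.51, 9.85 and 9.73 in E14. It was equal in both J1 arrays and higher by 0.34 and 0.22 with the hairpins. A dim Rnf2 probe set read 3.70 with Tet1 siRNA and 2.23 to 2.25 on the other arrays, below their filter levels, and with the median over all probe sets the J1 difference was 1.46. Its paralog Ring1 read 2.91 and 3.09 in J1 and 3.10, 3.08 and 3.18 in E14, at or near the filter level on every array. Such values are hard to tell from background, and the array gives no usable comparison for it. Among the PCGF proteins, which define PRC1 subtypes, Pcgf2 (Mel18) read 6.27 and 6.03 in J1 and 6.19, 5.84 and 6.05 in E14, below control in each depletion. Its other probe set differed by 0.61, -0.54 and -0.40, and with the median over probe sets the J1 difference turned to 0.185. Bmi1, its paralog, differed by 0.26, -0.05 and 0.26. Pcgf1, of the variant complex that holds Kdm2b, differed by -0.58, 0.05 and -0.11, and Pcgf6 by -0.25, 0.26 and 0.26. The other Pcgf6 probe sets above the filter differed by 0.15, 0.39 and 0.34 and by -0.05, 1.31 and 0.71.

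Of the chromodomain proteins, Cbx7, the main Cbx protein of stem cell PRC1, differed by -0.37, 0.04 and 0.05. Cbx2 and Cbx8, which become prominent on differentiation, differed by -0.16 to 0.13 and by -0.03 to 0.00. Cbx6 differed by 0.01, 0.50 and -0.02, and its other probe set above the filter by 0.03, 0.7 and 0.3. Of the Polyhomeotic subunits, which polymerize PRC1, Phc1 read 10.64 and 9.93 in J1 and 10.98, 11.34 and 11.03 in E14. It was 1.64-fold lower with Tet1 siRNA and not lower with either hairpin. Phc3 read 4.54 and 4.52 in J1 and 4.04, 5.01 and 4.52 in E14, 1.96-fold and 1.40-fold higher with the hairpins on 1 dim probe set. Both Phc3 hairpin differences rest on a scramble value that was the lowest of the 5. Phc2 differed by 0.22, -0.34 and -0.10. The 15 measured PRC1 genes had median differences of 0.00, 0.13 and 0.06.

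Among the H3K4 methyltransferases, Kmt2c and the subunit Wdr5 were at least 1.5-fold lower in J1, Kmt2c and Kmt2d at least 1.5-fold higher with shRNA3387, and 0 either way with shRNA2863. By sign alone, all 6 enzymes were below control in J1 (median -0.46), as were 50.4% of all genes and 61.1% of those with a mean over 6. With shRNA3387, 5 of the 6 were above the scramble array (median 0.23), beside 41.7% of all genes and 56.3% of those with a mean over 6. With shRNA2863 it was 6 of 6 (median 0.24), beside 41.8% and 54.3%. Counting the shared subunits too, 6 of the 11 genes were higher with shRNA3387 and 8 of 11 with shRNA2863. Kmt2c (MLL3), an enhancer H3K4 monomethyltransferase, read 7.51 and 6.60 in J1 and 6.78, 7.37 and 6.97 in E14. It was 1.88-fold lower in J1, and its other 2 probe sets above the filter were lower there by -0.46 and -0.45. The E14 difference of 0.59 with shRNA3387 stood beside 0.06 and -0.16 on those probe sets.

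Kmt2d (MLL4), the other enhancer enzyme, read 8.02 and 7.48 in J1 and 8.16, 8.8 and 8.59 in E14. Its effect in E14 exceeded that in J1 by 1.075 ± 0.225 (SE; limma unadjusted p = 0.0345, adjusted p = 0.344). Kmt2b, the enzyme of many bivalent promoters, read 8.14 and 7.69 in J1 and 8.64, 8.83 and 8.83 in E14, a difference of effects of 0.64 ± 0.12 (limma adjusted p = 0.344). Kmt2a (MLL1), which maintains Hox gene expression, read 7.54 and 7.49 in J1 and 6.44, 6.71 and 6.73 in E14. Its second, dimmer probe set differed more, by -0.36 in J1 and by 0.9 and 1.04 with shRNA3387 and shRNA2863. Setd1a, which trimethylates H3K4 and is required in stem cells, differed by -0.46, 0.01 and 0.31. Setd1b differed by -0.16, -0.25 and 0.15.

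Of the subunits that these complexes share, Wdr5, the scaffold that docks on the enzymes, read 9.59 and 8.97 in J1 and 10.03, 10.11 and 10.09 in E14. It was 1.54-fold lower with Tet1 siRNA, but its second probe set differed by 0.06 there. Its difference of effects of 0.69 ± 0.10 (SE; limma unadjusted p = 0.0145, adjusted p = 0.335) had the lowest p of the group. The errors of these differences rest on the hairpin pair, with 1 residual degree of freedom, and on the variance limma estimated over all genes. Rbbp5, which stimulates the catalytic subunit together with Ash2l, read 8.68 and 8.24 in J1 and 8.99, 8.76 and 8.93 in E14, below control in each depletion. Ash2l differed by 0.07, -0.22 and -0.38, the small subunit Dpy30 by -0.23, -0.01 and -0.08, and the MLL1 and MLL2 adaptor Men1 by -0.09, -0.09 and 0.10.

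By count, 10 of the 11 H3K4 methyltransferase genes were lower in J1, with a median of -0.44, beside -0.09 for all genes with a mean over 6. The test for a difference of Tet1 effect between systems called 0 of 13619 genes (0%), the lowest adjusted p being 0.332. Before adjustment 1887 genes (13.9%) had p under 0.05, 7.08% of all genes with the higher effect in E14. From the group, 4 did (Pcgf6, Kmt2b, Kmt2d and Wdr5), each with the higher effect in E14. Lower in J1 but higher in the mean of both hairpins were 13 of the 40 genes (32.5%), beside 23.2% of all genes, and 22 of 40 (55%) had the same sign in both, beside 47.2%. Stem cell markers were lower in the same J1 contrast, 10 of 10 with a median of -0.51, among them Esrrb by -1.21, Nanog by -0.88 and Klf4 by -0.87. Of the 9 trophectoderm markers above the filter 7 were higher there with a median of 0.51, Plac1 by 2.70 and Hand1 by 1.08. With shRNA2863 6 of these 9 were higher, with a median of 0.5, and with shRNA3387 4, with a median of -0.04. The log2 of the summed level was 14.66 and 14.30 in J1 and 14.63 to 14.72 in E14 for the stem cell list, and 12.92 and 13.49 in J1 and 10.87 to 11.87 in E14 for the trophectoderm list. Of the trophectoderm markers Cdx2, Elf5 and Gata3 were under the filter on all arrays. Of 13 proliferation genes 10 were lower in J1, with a median of -0.07. The part of these shifts in the H3K4 result was not tested, and fewer cells of a type cannot be told apart from less RNA per cell in such bulk samples.

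**Figure D4:**
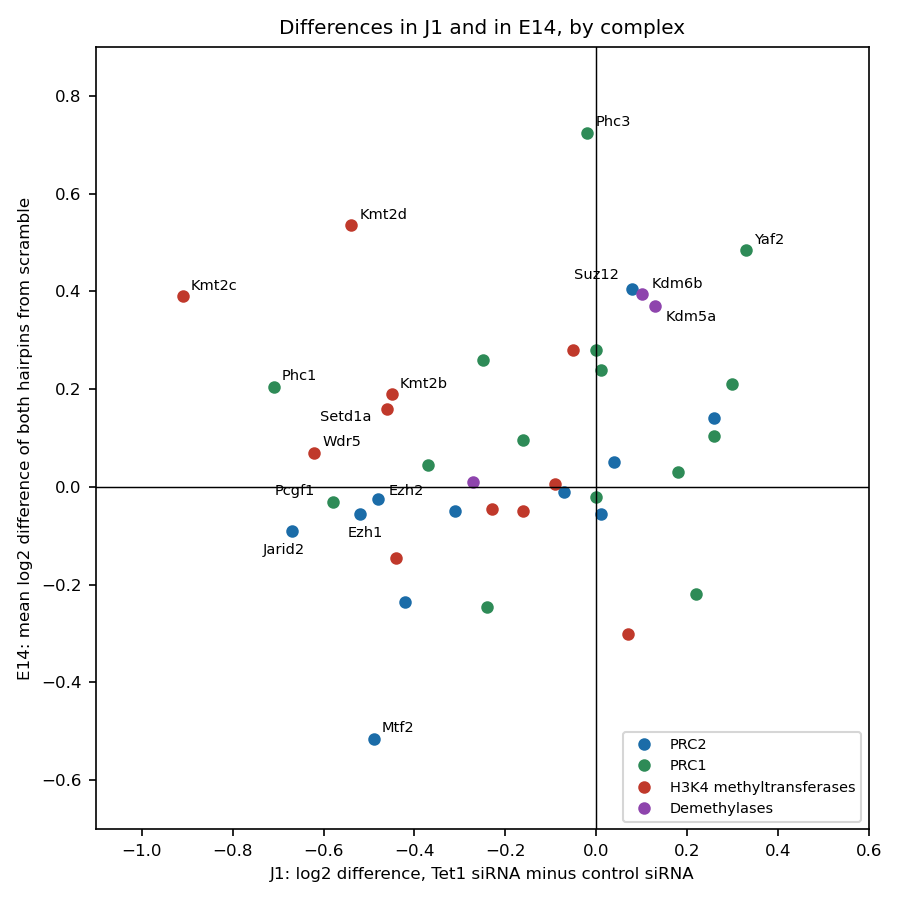
Log2 difference in J1 (x axis, Tet1 siRNA minus control siRNA) against the mean difference of both hairpins from the scramble array in E14 (y axis), 1 point for each of the 40 genes, coloured by complex. Kmt2c, Kmt2d, Kmt2b, Setd1a and Wdr5 lie at upper left, lower in J1 and higher in E14, while Mtf2 lies at lower left and Yaf2 at upper right.

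Of the 3 demethylases, Kdm5a with shRNA2863 alone passed 1.5-fold, and the probe sets of each gene differed in direction. Kdm6b (JMJD3), which removes H3K27 methylation, read 6.93 and 7.03 in J1 and 7.59, 8.02 and 7.95 in E14. It was above control on each depleted array (pooled 0.27 ± 0.12 SE, limma adjusted p = 0.718), but both its other probe sets were below the scramble array with each hairpin. Kdm5a, an H3K4 demethylase, read 7.48 and 7.61 in J1 and 8.12, 8.18 and 8.8 in E14, 1.60-fold higher with shRNA2863 alone. Of its 5 other probe sets above the filter, 1 was higher with that hairpin, by 0.09, and this one differed by 1.39 in J1. Kdm5b, the main H3K4 demethylase of stem cells, read 10.38 and 10.11 in J1 and 9.45, 9.42 and 9.50 in E14. Its second probe set was 1.15 lower on the log2 scale with Tet1 siRNA, against -0.27 for the brightest, and differed by -0.18 and -0.12 with the hairpins.

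Several subunits differed in level between the systems. In the limma fit with a term for Tet1, 2 of the 40 genes were higher in E14 than in J1 and 7 lower at an adjusted p under 0.05, beside 6.39% and 7.83% of all genes. Mtf2 was lower in E14 by -1.60 ± 0.09 (SE, 3 E14 and 2 J1 arrays; limma adjusted p = 0.0162), Suz12 by -1.06 ± 0.16 (adjusted p = 0.0351) and Rnf2 by -0.63 ± 0.10 (adjusted p = 0.0401). Every E14 array lay below both J1 arrays in all 3 genes. The 4 other Mtf2 probe sets above the filter were also lower on the E14 control array, by -0.25 to -1.13. The other bright probe sets of Suz12 were lower by -1.97 and -1.79, and that of Rnf2 by -1.46. Dimmer probe sets of Suz12 differed by 0.77, 0.51 and 0.02. When every probe set of a gene was combined by the median in place of the brightest, the Mtf2 difference was -0.36 and no longer called, and that of Rnf2 was -0.83 and not called.

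Also lower in E14 were Kmt2a (-0.91 ± 0.13, adjusted p = 0.0307), Ash2l (-0.86 ± 0.12, adjusted p = 0.0317), Kdm5b (-0.77 ± 0.10, adjusted p = 0.0289) and Phf19 (-0.61 ± 0.08, adjusted p = 0.0304), all from limma. The second Kmt2a probe set was lower by -1.50 on the E14 control array. The dimmer second probe set of Ash2l was higher there by 0.11, and that of Kdm5b by 0.31. By the median over probe sets the Kdm5b system difference turned to 0.83. Higher in E14 were Dpy30 (1.05 ± 0.07, limma adjusted p = 0.0167) and Kdm6b (0.83 ± 0.12, limma adjusted p = 0.0336). Dpy30 read 10.93 and 10.70 in J1 and 11.87, 11.86 and 11.79 in E14, on its only probe set. Other core subunits of PRC2 were not called: Ezh2 differed by 0.28 ± 0.14 (limma adjusted p = 0.281), Ezh1 by -0.004 ± 0.156 (adjusted p = 0.989) and Eed by -0.17 ± 0.08 (adjusted p = 0.262). Between the control arrays alone, 9 genes of the group were at least 1.5-fold lower in E14 and 3 higher, beside 13.4% and 9.69% of all genes.

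Leaving out any 1 of the 5 arrays left 1 residual degree of freedom, and the test of systems then called 0 genes in all. The Mtf2 system difference stayed between -1.66 and -1.55 over these fits, that of Suz12 between -1.25 and -0.93 and that of Rnf2 between -0.79 and -0.51. MEF feeders were present in the J1 cultures, and 1 fibroblast marker above the filter was higher on both J1 arrays than on every E14 array. Col1a2, a collagen chain singled out after its values were seen, read 6.24 and 5.95 in J1 and 3.62, 3.59 and 3.61 in E14, lower by -2.62 on the E14 control array. Of the 8 others above the filter, 7 were higher on that array and Thy1 lower. Among them Lum, near the filter level, read 3.11 and 3.01 in J1 and slightly higher, 3.14 to 3.19, in E14. The log2 of the whole list's summed level (13 with values) was 8.93 and 8.78 in J1 and 8.17 to 9.29 in E14. Col1a1 read 4.39 and 3.89 in J1 and 4.61, 3.30 and 3.89 in E14. Thy1 read 5.13 and 4.69 in J1 against 4.95 to 5.73 in E14, and Acta2 8.08 and 7.95 against 7.16 to 8.83. Col6a1, Pdgfra, Dcn and Postn were under the filter on all arrays. The part of feeder RNA in the system differences was not tested.

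**Figure D5:**
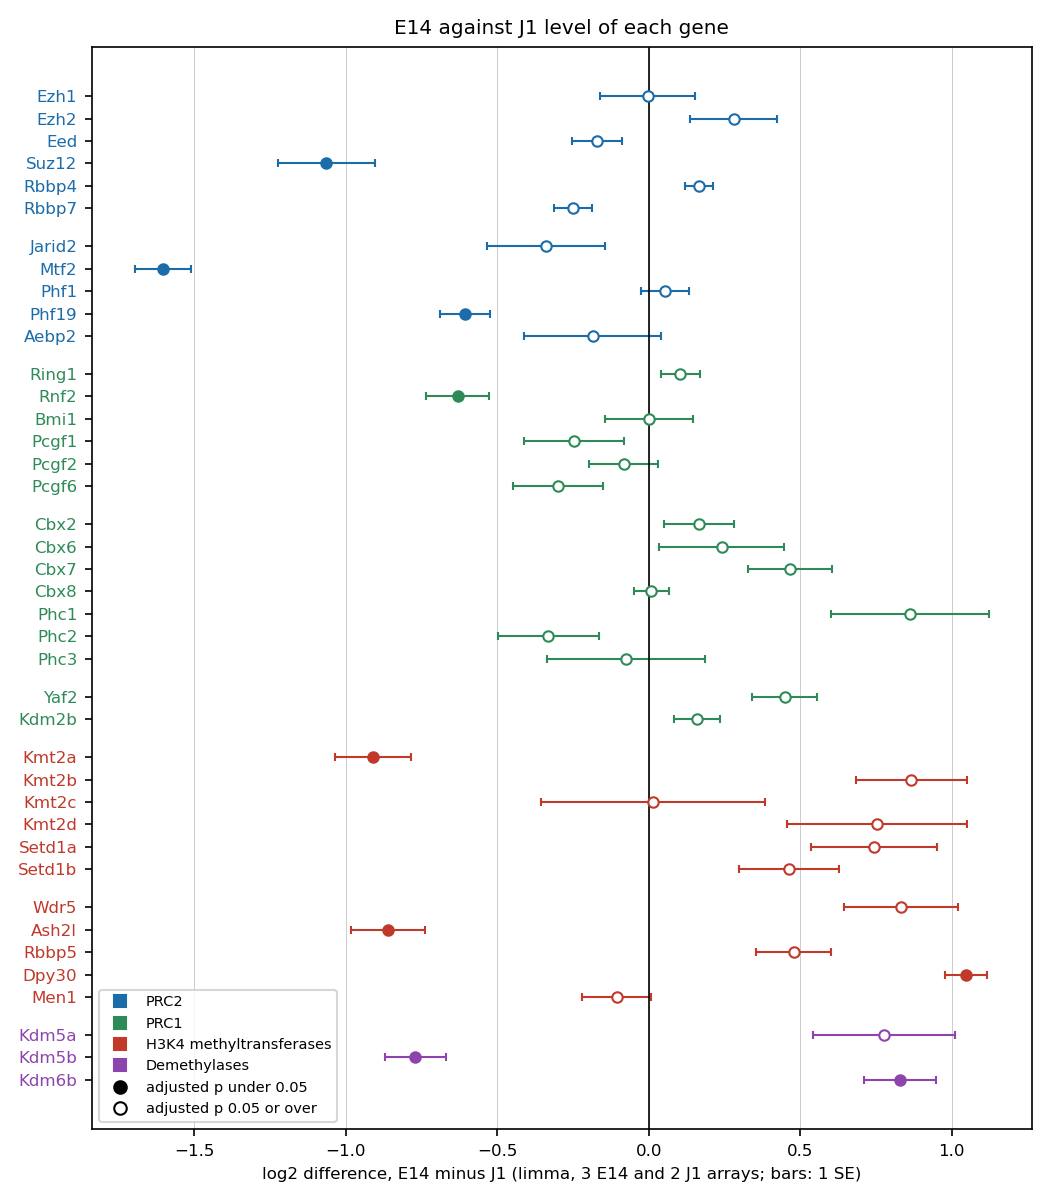
Difference of log2 level, E14 minus J1, from the limma fit with a Tet1 term (3 E14 and 2 J1 arrays), for the 40 measured genes by complex; bars are 1 SE and filled points passed an adjusted p of 0.05. Mtf2, Suz12, Rnf2, Phf19, Kmt2a, Ash2l and Kdm5b are filled to the left of 0, and Dpy30 and Kdm6b to the right.

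Other genes of the same complexes showed a similar mixture. Of 42 listed, 40 were above the filter. In J1 1 was at least 1.5-fold higher and 3 lower, beside 2.91% and 6.09% of all genes. With shRNA3387 3 were higher and 1 lower, beside 5.39% and 3.36%. With shRNA2863 3 were higher and 0 lower, beside 3.63% and 3.26%. Lcor, which founds a PRC2 accessory complex, differed by 0.10, 1.14 and 0.89. Cxxc1 (CFP1), the CpG-binding subunit of the Setd1 complexes, differed by -0.58, 0.82 and 0.61, the J1 and E14 signs that Kmt2d also had. Ncoa6, a subunit of the Kmt2c and Kmt2d complexes, differed by 0.21, 0.57 and 0.81. Sin3a, a corepressor scaffold that binds Tet1, read 9.43 and 8.46 in J1 and 8.89, 8.56 and 8.64 in E14, below control in each depletion (pooled -0.58 ± 0.19 SE; limma unadjusted p = 0.0424, adjusted p = 0.718). The list medians were -0.14, -0.01 and 0.01.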

How the data were processed

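RNA of 5 samples was measured on Affymetrix arrays, 1 array a group, with groups taken from the labels. The values deposited by the authors are probe set summaries taken as log2 from their range of 1.38 to 14.12 with 2 decimals; how they were summarised and normalized is not given in the sources used here, and they were not normalized again. The GEO platform annotation named 34958 probe sets with 1 symbol and 932 with several, of 45101; 34754 were matched by Entrez identifier to RefSeq GRCm38.p6. The brightest probe set by mean stood for its gene. Single arrays were compared by size at 1.5-fold, with no p-value. Two-sided tests were fitted by limma (version 3.58.1, R version 4.3.3), allowing the variance to follow the mean level, with p-values Benjamini-Hochberg adjusted over all 13619 genes, and were tested on simulated data. Lone arrays were assumed to vary as the hairpin pair does in the test of effects between systems. Precision is limited by the number of arrays. The members, gene lists, threshold and naming rule were chosen with earlier results of these data known. All members were named. Values on every array were given for 10 fixed members, for those past 1.5-fold in a depletion or 2-fold between controls, and for the 4 largest each way with the same sign in all 3. Of other lists, genes past 1.5-fold were named by mean size, up to 4. Promoters were described by the start with most CpG; Yaf2, which the rule also chose, had none listed, and Suz12 and Rnf2 were chosen after their values were seen. Alternatives were quantile normalization, median centring, other filters, medians over probe sets, a 2-fold threshold, other model terms and leaving out each array.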

Additional observations from a re-analysis of the deposited data

How the results depend on the processing

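No paired analysis was possible because each group holds 1 array and the labels give no replicate numbers. Leaving out each array in turn gave 0 calls for the Tet1 effect and 0 to 0 for the systems test, over all genes and over the group, against 1936 and 9 with all arrays. The loss comes with the fall from 2 residual degrees of freedom to 1. With the median over all probe sets, 1 gene was higher and 5 lower in J1. At a 2-fold threshold, by the brightest probe set, 0 genes of the group passed in each depletion and 3 between the control arrays. With shRNA3387 the count of 4 became 2 after quantile normalization and 2 with the median over all probe sets. With shRNA2863 the count of 1 became 2 after median centring, with that median, and with the median over probe sets above the filter, an alternative chosen after seeing the data. With the median over all probe sets, the control arrays differed by 0.01 for Rnf2 and 0.17 for Kdm5b, and Kmt2c with shRNA3387 by -0.05 and Kdm5a with shRNA2863 by -0.045. The system difference became 0.83 for Kdm5b, -0.48 for Rbbp4 and -1.23 for Kmt2c. The values for Kdm5b, Kdm5a and Rbbp4 were the same with the median over probe sets above the filter. There the Mtf2 system difference was -0.08 and no longer called, since the median fell on different probe sets on different arrays, while its pooled Tet1 difference was -0.71. The Phf19 system difference was not called after quantile normalization, nor that of Rnf2 after median centring. Signals at or near the filter level, as for Ring1, limit what can be compared.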

Other observations

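Of 42 developmental regulators listed as known Polycomb targets of stem cells, 19 were under the filter on all 5 arrays, among them Hoxa7, Hoxb1, Olig2 and Pax3, and 21 were above it on at least 1. In J1 cells 2 of the 21 were at least 1.5-fold higher and 3 lower, beside 2.91% and 6.09% of all genes. With shRNA3387 1 was higher and 3 lower, beside 5.39% and 3.36%. With shRNA2863 0 were higher and 4 lower, beside 3.63% and 3.26%. The 1 higher with shRNA3387, Pax7, passed the filter only through that array, at 3.45 against 2.61 to 2.64 on the others. Of the 2 higher in J1, Fgf8 read 2.34 on the control array, so the Pax7 and Fgf8 calls rest on values under the filter level. The other of the 2, Hand1, read 4.03 and 5.11 in J1, above that level. The medians over the 21 were 0.03, -0.02 and -0.02. Neurod1 and Pax6 were each at least 1.5-fold lower in all 3 depletions. Cdkn2a, which encodes the cell cycle inhibitors p16 and p19ARF and is a classic Polycomb target, read 4.01 and 3.34 in J1 and 3.88, 2.55 and 2.58 in E14. It was 1.5-fold lower or more in J1 (-0.67), and with both hairpins it was under the filter level, so the size of that difference is not given. Neurod1, a neurogenic factor, read 6.50 and 5.54 in J1 and 7.93, 7.21 and 6.55 in E14 (pooled -1.01 ± 0.24 SE, limma adjusted p = 0.7). The eye and forebrain factor Pax6 read 4.61 and 3.88 in J1 and 5.33, 4.61 and 3.99 in E14 (pooled -0.90 ± 0.23, limma adjusted p = 0.7). Hand1, also a trophectoderm factor, differed by 1.08, 0.28 and -0.43.

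The hairpin arrays, which leave different amounts of Tet1, differed from each other by at least 1.5-fold in 2 of the 40 genes (5%), beside 5.65% of all genes. Aebp2 was lower with shRNA3387 than with shRNA2863 by -0.61, and Kdm5a by -0.62. Kmt2b and Pcgf6 read the same with both hairpins.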
